A study of Mus musculus with 6 samples.

Results

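The response of the mouse thoracic aorta to angiotensin II (Ang-II) was compared between transgenic mice whose smooth muscle carries a peptide inhibitor of CaMKII and their wild-type littermates. The quantity described is the interaction, the Ang-II response of the transgenic aorta minus that of the wild-type aorta, on the log2 scale. A probe entered if its detection p-value was below 0.01 on 2 or more arrays, which held for 16749 of 45281 probes and 9837 of 19057 named genes. Of these probes, 16486 lay outside 3 lists of striated muscle, fat and red cell genes, and 263 lay on them. The question was which genes of the vessel wall had a smaller or a larger Ang-II response when CaMKII was inhibited.

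TG SM-CaMKIIN mice (TG) express CaMKIIN, per the labels in smooth muscle only, and WT littermates on the same C57 Bl/6 background do not. All mice were 12 weeks old and received either Ang-II at 1.25 ug/kg/min in saline or saline alone from osmotic minipumps for 14 days. The 4 groups were TG Ang-II (2 arrays), TG saline (1 array), WT Ang-II (2 arrays) and WT saline (1 array), each from 5 mice whose aortic RNA was pooled. By their titles the paired Ang-II arrays are biological replicates, but the labels do not tell which mice entered which array. The spread behind each p-value is that between such paired arrays and could be technical. A lone saline array was assumed to vary like them. The transgene's promoter and the number of founder lines were not stated.

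CaMKII is a kinase that calcium and calmodulin switch on, and in smooth muscle it is one of the steps between a calcium rise and gene transcription. Ang-II acts on its type 1 receptor, raises calcium in the smooth muscle cell and, given over days, raises blood pressure and remodels the wall with new matrix and immune cells. Among the known substrates of CaMKII are class II histone deacetylases such as HDAC4, which hold back transcription factors of the MEF2 family.

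The arrays resembled each other in depth, with 15393 to 16075 probes detected and median raw signals between 110.0 and 131. Replicate arrays correlated across probes with r = 0.990 for TG Ang-II and 0.991 for WT Ang-II, and probes are not independent replicates. The marker genes of smooth muscle fixed for the check (Acta2, Myh11, Tagln, Cnn1 and Smtn), of endothelium and of adventitial fibroblasts were detected on all 6 arrays. The median standard error (SE) of an interaction was 0.25, against 0.15 for the TG and WT difference under Ang-II, so small interactions were not detectable with this number of arrays. In data simulated from the fit, 2% of interactions of 1 log2 unit were called, and 62% of those of 2 log2 units. A list without a call can therefore hold interactions of that size. In bulk aorta, fewer cells of a type and less RNA per cell cannot be told apart.

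Transcripts of tissues other than the vessel wall differed between the groups and were set aside. The summed signal of 85 striated muscle genes was 127.9 and 125.9, in units of 1000, on the TG Ang-II arrays and 76.4 on the TG saline array, against 69.3 and 70.4 on the WT Ang-II arrays and 77.8 on the WT saline array. That of 94 fat and lipid genes was 152.1, 152.8 and 142.7 on the TG Ang-II and TG saline arrays, against 194.4, 195.2 and 113.5 on the WT Ang-II and WT saline arrays. For 18 red cell genes it was 54.5, 60.5 and 52.9 on the TG arrays in that order, against 101.3, 99.8 and 32.8 on the WT arrays. Striated muscle signal was thus highest in TG Ang-II, while fat and red cell signal was highest in WT Ang-II and lowest in WT saline, as the plot of summed signal by array shows. Of the defining markers, Fabp4, Retn and Elovl3 were detected on no array, and Ckm and Slc4a1 on 2 arrays each. At the gene level 34 striated muscle genes passed with a higher and 2 with a lower interaction, 1 fat gene with a higher and 21 with a lower one, and 5 red cell genes with a lower one. Over all genes 0.722% passed with a higher and 0.539% with a lower interaction. A small mesothelium list (7 genes) summed to 2.3, 1.9 and 2.5 on the TG Ang-II and TG saline arrays, against 1.0, 0.9 and 2.2 on the WT Ang-II and WT saline arrays. Of its genes 0 passed in either direction. The part of these tissues in the results that follow was not tested.

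**Figure D1:**
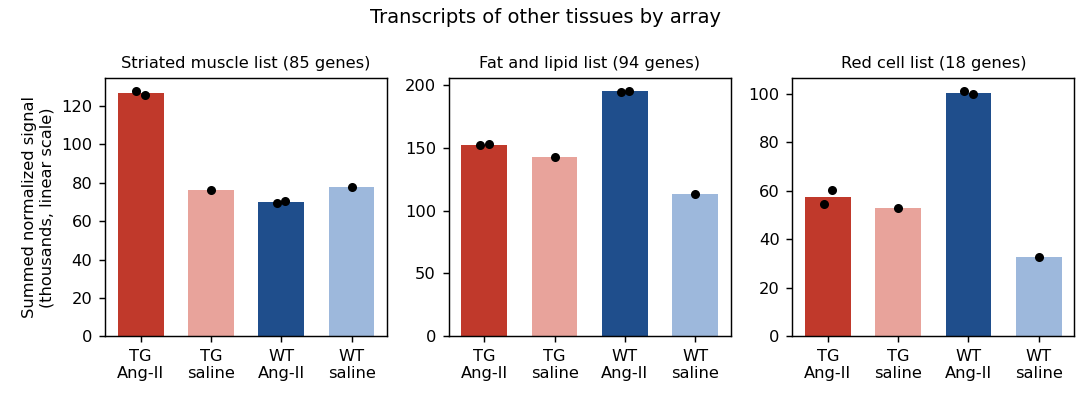
Summed normalized signal, in units of 1000 on a linear scale, of the striated muscle, fat and red cell lists. Bars are the mean of the arrays of a group and points are single arrays (2 for each Ang-II group, 1 for each saline group). The striated muscle sum is highest in TG Ang-II (127.9 and 125.9) and the red cell sum in WT Ang-II (101.3 and 99.8).

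A difference between the genotypes in the Ang-II response passed for 199 of the 16749 probes (1.19%), by limma with a Benjamini-Hochberg adjusted p under 0.05 over all probes, with 119 higher (0.71%) and 80 lower (0.478%) in TG. At an unadjusted p under 0.05 there were 2314 (13.8%). Of the 199, 80 belonged to the striated muscle, fat and red cell lists and 119 did not, 75 of them higher and 44 lower. The 119 took in 82 named genes and 26 probes without a symbol. All 119 had the same sign in each of the 4 combinations of 1 TG and 1 WT Ang-II array, as had all 199. The calls were made from these same arrays and the same saline arrays, so this agreement is no independent support. By their brightest probe, 62 of 9837 genes passed outside those lists, 36 higher and 26 lower, where the background over all genes was 124 passed (1.26%), 71 higher (0.722%) and 53 lower (0.539%).

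The simple comparisons behind the interaction had their own backgrounds. TG and WT differed under Ang-II for 5.28% of probes (2.73% higher, 2.55% lower) and 5.35% of genes (3.02% higher, 2.33% lower). Under saline they differed for 0.185% of probes (0.101% higher, 0.0836% lower) and 0.163% of genes (0.102% higher, 0.061% lower). Ang-II changed 7.57% of probes in TG (5.84% higher, 1.73% lower) and 6.78% of genes (5.23% higher, 1.56% lower). In WT it changed 9.06% of probes (6.35% higher, 2.72% lower) and 8.72% of genes (6.09% higher, 2.63% lower).

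The number of calls depended on the arrays in the fit. Leaving out an Ang-II array moved the interactions of the 35 named genes that passed by at most 0.268. It also left the spread behind every p-value to the pair of the other genotype alone. A lower count therefore does not show that the values of the array left out made the calls. Without WT Ang-II array 1 the count over all probes was 30 and without array 2 it was 28, with 0 lower calls in either fit, against 133 and 126 (52 and 47 lower) without TG Ang-II array 1 and array 2. It was 14 when the data were normalized and fitted again without the probes of the 3 other-tissue lists. In that fit the interactions of the 35 named genes that passed moved by at most 0.0107, and 7 of the 35 passed (Cemip, Eef1a2, Hnrnpl, Irs3, Saa3, Sspn and Zbtb16). Hnrnpl and Sspn passed without either WT array, and Eef1a2 passed without array 2. Without TG Ang-II array 1 and array 2, 24 and 20 of the 35 passed. The simple comparisons of these genes held more often: of 31 differences between TG and WT under Ang-II that passed, 18 and 19 passed without WT Ang-II array 1 and array 2, and of 26 responses in WT 18 passed in both cases. Of 18 responses in TG, 14 and 13 passed without TG Ang-II array 1 and array 2.

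The shape of the difference varied. A response is called blunted where its fitted value in TG lay nearer 0 than in WT, enlarged where it lay farther from 0 with the same sign, and turned where the signs differed. These words describe fitted values, and the test is that of the interaction. Of the 36 genes with a higher interaction, 9 were blunted, 5 enlarged and 22 turned, and of the 26 with a lower one, 5 were blunted and 21 turned. The genotypes were farther apart under Ang-II than under saline for 25 of the 36 and 21 of the 26. For the other 11 and 5 the larger difference was between the 2 saline arrays, with 1 array a genotype.

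**Figure D2:**
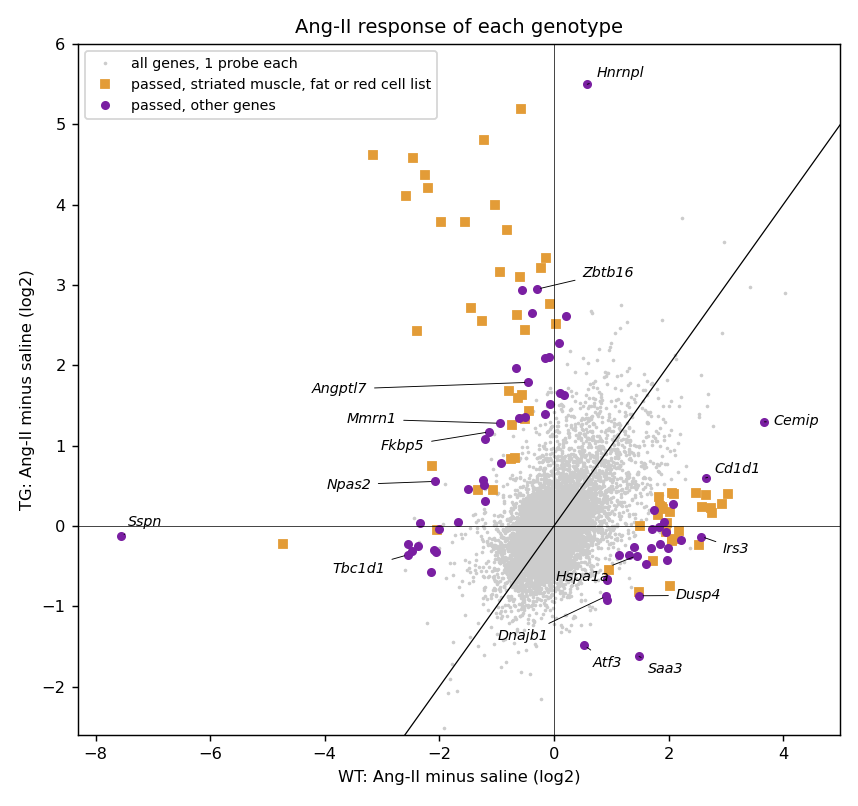
Ang-II response of TG (vertical axis) against that of WT (horizontal axis), both as log2 differences from the saline array of the genotype. Each small point is 1 of 9837 genes, squares are genes of the striated muscle, fat and red cell lists that passed, circles are the other 62 genes that passed, and the line marks equal responses. Circles below the line hold genes such as Cemip (1.30 in TG, 3.67 in WT), and circles above it genes such as Zbtb16 (2.95 in TG, -0.30 in WT).

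**Figure D3:**
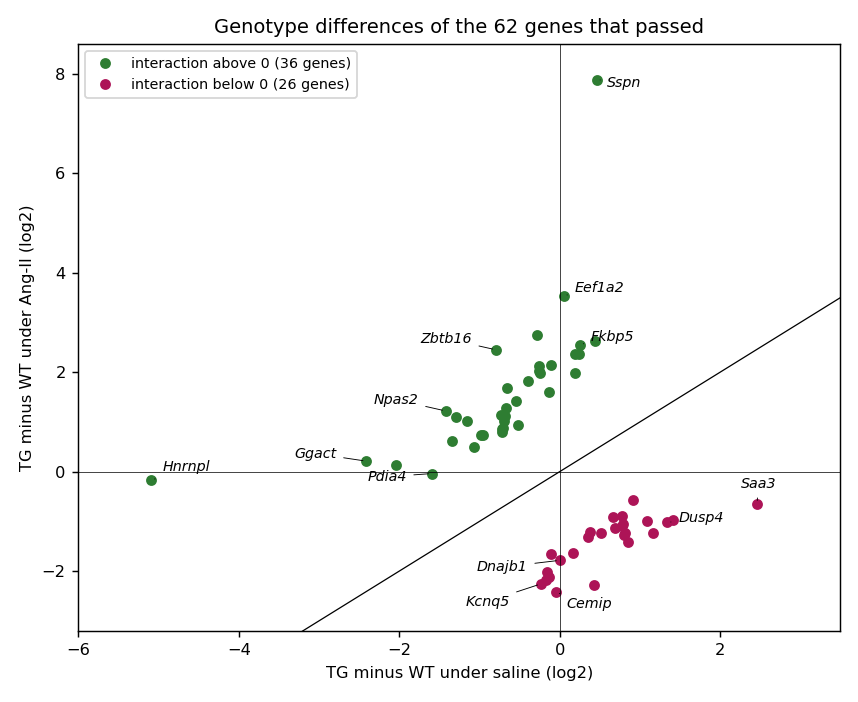
TG minus WT under Ang-II (vertical axis) against TG minus WT under saline (horizontal axis), in log2 units, for the 62 genes outside the other-tissue lists that passed, with the line of equal differences. Most points lie far from 0 on the vertical axis, as Sspn (7.88) and Cemip (-2.42) do, while Hnrnpl (-5.09) and Saa3 (2.46) lie far from 0 along the saline axis.

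Among the genes whose rise under Ang-II was smaller in TG were a gene of matrix turnover and a potassium channel gene. Cemip, whose product binds hyaluronan and leads it to breakdown, had log2 signals of 5.82 and 5.84 in TG Ang-II and 4.53 in TG saline, against 8.26 and 8.25 in WT Ang-II and 4.58 in WT saline. It was not detected on either saline array and rose in both genotypes, by at least 1.12-fold in TG and at least 6.16-fold in WT, a fold being a lower bound where a probe is not well above background in 1 group. Its interaction was -2.38 ± 0.21 (SE, adjusted p = 0.0140), and under Ang-II it was 5.37-fold lower in TG than in WT (adjusted p = 0.000644). Kcnq5, which encodes a voltage-gated potassium channel of the KCNQ family, was detected only on the WT Ang-II arrays, with 4.52 and 4.44 in TG Ang-II and 4.55 in TG saline, against 6.78 and 6.69 in WT Ang-II and 4.79 in WT saline. It rose in WT by at least 2.15-fold, and its interaction was -2.02 ± 0.22 (adjusted p = 0.0228), or -1.09 with undetected values at the lowest detected signal. Kcnq5 passed the detection filter only through WT Ang-II, the group where it is high, so its call is a description. Both genes were far apart on the Ang-II arrays of the genotypes and close together on the saline arrays. Leaving out WT Ang-II array 1 and then array 2, neither interaction passed (adjusted p = 0.106 and 0.0959 for Cemip, 0.127 and 0.115 for Kcnq5). Over all arrays, TG minus WT under Ang-II was -2.26 for Kcnq5. As Kcnq5 was not detected in TG Ang-II, that difference too is a description.

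Cd1d1 and Vsig4, genes of immune cells, belonged to the same group. Cd1d1, which encodes a molecule that presents lipid antigens to T cells, had 8.75 and 8.50 in TG Ang-II and 8.03 in TG saline, against 9.81 and 9.92 in WT Ang-II and 7.22 in WT saline. It rose 6.27-fold in WT, had a response of 0.60 ± 0.18 in TG (adjusted p = 0.112) and an interaction of -2.05 ± 0.25 (adjusted p = 0.0312). Vsig4, which encodes a complement receptor of resident macrophages, had 6.97 and 6.95 in TG Ang-II and 6.99 in TG saline, against 8.08 and 8.30 in WT Ang-II and 6.48 in WT saline. It rose 3.26-fold in WT and had an interaction of -1.74 ± 0.24 (adjusted p = 0.0414). For each gene the WT Ang-II arrays lay above the other 4, and WT saline was the lowest array. The adjusted p without WT Ang-II array 1 and array 2 was 0.135 and 0.141 for Cd1d1 and 0.131 and 0.151 for Vsig4, and without the TG arrays 0.0412 and 0.0510 for Cd1d1 and 0.0785 and 0.0743 for Vsig4. The fat and red cell sums also were highest in WT Ang-II and lowest in WT saline, and their part in these differences was not tested.

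Many genes of the macrophage list rose in both genotypes. Of its 55 measured genes, 25 rose and 0 fell in TG and 40 rose and 0 fell in WT, where 5.23% and 6.09% of all genes rose. The median response was 0.82 in TG and 1.13 in WT, and the median interaction -0.37, against -0.01 over all genes. Only Vsig4 passed the test of the difference, with a lower interaction, where 0.539% of all genes did. At an unadjusted p under 0.05, 13 had a lower and 1 a higher interaction, where 6.89% and 6.62% of all genes did. Ncf4, a subunit of the phagocyte NADPH oxidase, had 6.90 and 6.90 in TG Ang-II and 6.31 in TG saline, against 7.59 and 7.69 in WT Ang-II and 5.60 in WT saline, with an interaction of -1.45 ± 0.22 (adjusted p = 0.0512). Rac2, the GTPase of that oxidase and detected only on the WT Ang-II arrays, had an interaction of -1.41 ± 0.24 (adjusted p = 0.0701). Rac2 passed the filter only through those arrays, so its value is a description. Aif1, a marker of activated macrophages, had an interaction of -1.20 ± 0.21 (adjusted p = 0.0774). Of the 55 genes, 10 were not detected in at least 1 group. On the saline arrays TG minus WT was 0.71 for Ncf4 (adjusted p = 0.175) and 0.45 for Aif1 (adjusted p = 0.335).

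Hspa1a and Dnajb1, a pair of chaperone genes on the stress list, had lower interactions. Other heat shock genes of that list did not pass, and more of them lay below 0 than above it. Examples above 0, chosen after their values were seen, were Hspa8 (0.15 ± 0.22, adjusted p = 0.828) and Hspa4l (0.69 ± 0.46, adjusted p = 0.593). Examples below 0, chosen likewise, were Hspe1 (-0.62 ± 0.24, adjusted p = 0.331), Chordc1 (-0.69 ± 0.22, adjusted p = 0.258), Bag3 (-0.54 ± 0.24, adjusted p = 0.400) and Dnajb4 (-0.52 ± 0.28, adjusted p = 0.485). Hspa1a, the inducible HSP70 chaperone, had 11.46 and 11.58 in TG Ang-II and 11.90 in TG saline, against 13.18 and 13.16 in WT Ang-II and 11.72 in WT saline. It rose 2.72-fold in WT, had a response of -0.37 ± 0.16 in TG (adjusted p = 0.209) and an interaction of -1.81 ± 0.22 (adjusted p = 0.0292). A second probe gave -2.21 ± 0.23 (adjusted p = 0.0209). The neighbouring Hspa1b, a near-identical copy whose signal the probes may not separate from that of Hspa1a, had -1.90 ± 0.34 (adjusted p = 0.0798). Dnajb1, the HSP40 partner of HSP70, had 11.30 and 11.33 in TG Ang-II and 12.19 in TG saline, against 13.12 and 13.08 in WT Ang-II and 12.19 in WT saline. The 2 saline arrays were level, and Dnajb1 rose 1.88-fold in WT and fell 1.83-fold in TG, with an interaction of -1.79 ± 0.21 (adjusted p = 0.0279). Leaving out WT Ang-II array 1 and array 2 gave an adjusted p of 0.143 and 0.138 for Hspa1a and 0.140 and 0.130 for Dnajb1, and without the TG arrays 0.0595 and 0.0510 for Hspa1a and 0.0594 and 0.0553 for Dnajb1. The differences under Ang-II passed in all 4 of these fits, at an adjusted p of at most 0.0435 for Hspa1a and 0.0362 for Dnajb1. The rise in WT did not pass without WT Ang-II array 1 and array 2 (0.0546 and 0.0557 for Hspa1a, 0.103 and 0.0961 for Dnajb1), and the fall of Dnajb1 in TG passed in none of the 4 fits (0.0630 to 0.0737).

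Atf3 and Dusp4 of the immediate-early list, which holds genes switched on within minutes to hours of a stimulus, had lower interactions. Atf3, a transcription factor induced by stress, had 7.13 and 7.19 in TG Ang-II and 8.64 in TG saline, against 9.48 and 9.21 in WT Ang-II and 8.82 in WT saline. It fell 2.80-fold in TG, while its response in WT was 0.53 ± 0.18 (adjusted p = 0.128), and the interaction was -2.01 ± 0.25 (adjusted p = 0.0319). The TG Ang-II arrays lay below the other 4. Dusp4, a phosphatase that switches off MAP kinases, had 7.052 and 7.157 in TG Ang-II and 7.974 in TG saline, against 8.249 and 8.002 in WT Ang-II and 6.632 in WT saline. It fell 1.83-fold in TG and rose 2.81-fold in WT, with an interaction of -2.36 ± 0.25 (adjusted p = 0.0224), and the lowest array was WT saline. For Dusp4 the genotypes lay farther apart on the single saline arrays (TG minus WT 1.34) than under Ang-II (-1.02). A second Dusp4 probe had -1.77 ± 0.38 (adjusted p = 0.115). With WT Ang-II array 1 and array 2 left out in turn the adjusted p was 0.131 and 0.111 for Atf3 and 0.111 and 0.0959 for Dusp4, and without the TG arrays 0.0608 and 0.0555 for Atf3.

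No other gene of that list passed. Of 28 measured immediate-early genes, 0 passed with a higher and 2 with a lower interaction, where 0.722% and 0.539% of all genes did. The median was -0.15, with 10 above 0 and 18 below. At an unadjusted p under 0.05, 0 were higher and 6 lower, where 6.62% and 6.89% of all genes were. In TG 1 rose and 5 fell, where 5.23% and 1.56% of all genes did. In WT 3 rose and 1 fell, where 6.09% and 2.63% did. Fos, a subunit of the AP-1 transcription factor, had 9.43 and 9.50 in TG Ang-II and 11.30 in TG saline, against 9.48 and 9.58 in WT Ang-II and 9.96 in WT saline. The 4 Ang-II arrays of Fos were level, the TG saline array was the highest, and the interaction was -1.42 ± 0.22 (adjusted p = 0.0566). Ccn1, a matrix protein induced in the same manner, had 9.79 and 9.76 in TG Ang-II and 11.08 in TG saline, against 11.37 and 11.61 in WT Ang-II and 11.22 in WT saline, and an interaction of -1.57 ± 0.24 (adjusted p = 0.0576). Egr1 had an interaction of -0.48 ± 0.24 (adjusted p = 0.454) and Jun one of -0.67 ± 0.27 (adjusted p = 0.362).

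The promoters of Atf3, Hspa1a and Dnajb1 are shown because these genes of the stress and immediate-early lists passed with a lower interaction. Dusp4 met the same rule, but no promoter sequence was available for it. The genes shown were lower in TG Ang-II than in WT Ang-II and close to level under saline. Each is the 250 bases before a start site in RefSeq on build GRCm38.p6, 5′ to 3′ on the strand of the gene, at chr1:191183334-191183583 (minus strand) for Atf3, chr17:34972157-34972406 (minus strand) for Hspa1a and chr8:83607925-83608174 (plus strand) for Dnajb1. A second Dnajb1 start in the table, with its window at chr8:83608298-83608547, is not shown. Capitals mark matches to the motifs searched on both strands.
Atf3: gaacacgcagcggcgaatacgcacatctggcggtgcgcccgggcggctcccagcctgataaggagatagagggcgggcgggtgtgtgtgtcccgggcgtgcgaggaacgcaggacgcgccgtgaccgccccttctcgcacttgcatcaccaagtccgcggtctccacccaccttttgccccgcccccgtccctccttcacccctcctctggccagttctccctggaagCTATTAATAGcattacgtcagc
Hspa1a: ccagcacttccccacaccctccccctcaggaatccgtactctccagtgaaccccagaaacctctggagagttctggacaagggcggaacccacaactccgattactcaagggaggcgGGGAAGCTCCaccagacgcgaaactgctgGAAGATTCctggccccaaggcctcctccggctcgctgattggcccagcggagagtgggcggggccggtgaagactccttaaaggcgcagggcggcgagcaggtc
Dnajb1: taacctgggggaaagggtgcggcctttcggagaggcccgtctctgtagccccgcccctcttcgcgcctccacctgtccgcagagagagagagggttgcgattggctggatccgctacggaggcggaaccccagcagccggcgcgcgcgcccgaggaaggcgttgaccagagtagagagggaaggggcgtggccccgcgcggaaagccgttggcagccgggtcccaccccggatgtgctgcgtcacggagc

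The Atf3 window held a match to the MEF2 motif from -22 to -13 relative to the start, a motif found in 0.508% of 32851 promoter windows of this length. The Hspa1a window held a match to the NF-kB motif from -133 to -124 (7.25% of windows) and the heat shock element GAANNTTC from -104 to -97 (6.69% of windows). The heat shock element was added to the search after the values had been seen, and its other phase TTCNNGAA was found in 7.17% of windows. The CArG box, AP-1 (TGANTCA) and CRE (TGACGTCA) motifs were not found in the 3 windows, and the Dnajb1 window held none of the motifs. A match of letters is a description and does not show binding.

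Several further genes had lower interactions. Lrrn1, a leucine-rich repeat membrane protein, had 6.25 and 6.24 in TG Ang-II and 6.72 in TG saline, against 7.51 and 7.53 in WT Ang-II and 5.91 in WT saline, with an interaction of -2.08 ± 0.21 (adjusted p = 0.0202). Hs6st2, which adds sulfate to heparan sulfate chains, had an interaction of -2.39 ± 0.29 (adjusted p = 0.0297), and its second probe one of -2.54 ± 0.27 (adjusted p = 0.0228). For both genes WT saline was the lowest array and WT Ang-II the highest, with the TG arrays between. Tmem79 (-2.27 ± 0.27, adjusted p = 0.0279), Dtd2 (-1.98 ± 0.23, adjusted p = 0.0249) and Fam184b (-1.85 ± 0.24, adjusted p = 0.0375) also passed. Dtd2, a deacylase that acts on charged transfer RNA, was detected on the WT Ang-II arrays only and passed the filter through them, so its call too is a description (-0.91 with undetected values at the lowest detected signal). None of these 5 genes passed without WT Ang-II array 1 (adjusted p = 0.0866 to 0.133) or without array 2 (0.111 to 0.151).

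4 of the named genes with lower interactions are known for their expression in fat although they stood on no excluded list. Irs3, an insulin receptor substrate of rodent fat cells, had 6.01 and 5.92 in TG Ang-II and 6.10 in TG saline, against 8.29 and 8.19 in WT Ang-II and 5.67 in WT saline, and an interaction of -2.70 ± 0.22 (adjusted p = 0.0110). Lncbate10, a long noncoding RNA of brown fat, had -2.39 ± 0.23 (adjusted p = 0.0190), Nrg4, a growth factor released by brown fat, -2.07 ± 0.23 (adjusted p = 0.0245), and Hcar1, the lactate receptor of fat cells, -1.87 ± 0.23 (adjusted p = 0.0315). In each, WT Ang-II was highest and WT saline lowest, the same order as the summed fat list (152.1, 152.8 and 142.7 in units of 1000 in TG Ang-II and TG saline, against 194.4, 195.2 and 113.5 in WT Ang-II and WT saline). None of the 4 passed without WT Ang-II array 1 or array 2 (adjusted p = 0.0754 to 0.141).

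On the other side were genes that were higher in TG Ang-II than in WT Ang-II while their saline arrays lay closer together. Zbtb16, a zinc finger transcription factor also called PLZF, had 9.19 and 9.03 in TG Ang-II and 6.17 in TG saline, against 6.52 and 6.81 in WT Ang-II and 6.96 in WT saline. It rose 7.72-fold in TG, with an interaction of 3.24 ± 0.27 (adjusted p = 0.0118). Angptl7, a secreted angiopoietin-like protein, had 12.48 and 12.27 in TG Ang-II and 10.59 in TG saline, against 10.27 and 10.51 in WT Ang-II and 10.83 in WT saline. It rose 3.45-fold in TG and its interaction was 2.23 ± 0.26 (adjusted p = 0.0280), with 2.19 ± 0.26 (adjusted p = 0.0270) by a second probe. In both genes the TG Ang-II arrays stood above the other 4. The adjusted p with WT Ang-II array 1 and array 2 left out was 0.0673 and 0.0519 for Zbtb16 and 0.131 and 0.114 for Angptl7.

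A further 3 genes moved in opposite directions in the genotypes. Fkbp5, a co-chaperone that limits the glucocorticoid receptor, had 10.13 and 10.24 in TG Ang-II and 9.02 in TG saline, against 7.48 and 7.78 in WT Ang-II and 8.76 in WT saline. It rose 2.25-fold in TG and fell 2.19-fold in WT (interaction 2.30 ± 0.27, adjusted p = 0.0263). Hif3a, a member of the hypoxia-inducible factor family, had 7.57 and 7.58 in TG Ang-II and 6.50 in TG saline, against 5.52 and 5.59 in WT Ang-II and 6.75 in WT saline. It rose 2.11-fold in TG and fell 2.29-fold in WT (interaction 2.27 ± 0.21, adjusted p = 0.0179), while a dimmer second probe had 1.20 ± 0.54 (adjusted p = 0.408). Mmrn1, a secreted protein of platelets and of endothelium, lymphatic endothelium included, had 8.42 and 8.39 in TG Ang-II and 7.13 in TG saline, against 6.61 and 6.55 in WT Ang-II and 7.53 in WT saline. It rose 2.43-fold in TG and fell 1.92-fold in WT (interaction 2.22 ± 0.21, adjusted p = 0.0180). In all 3 the TG Ang-II arrays were the highest and the WT Ang-II arrays the lowest. The 3 interactions did not pass without WT Ang-II array 1 or array 2 (adjusted p = 0.0959 to 0.117), and neither did the falls in WT (0.0656 to 0.0994). The difference between TG and WT under Ang-II passed in both fits (0.0129 to 0.0333). The striated muscle sum was also highest in TG Ang-II and lowest in WT Ang-II, and its part was not tested.

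**Figure D4:**
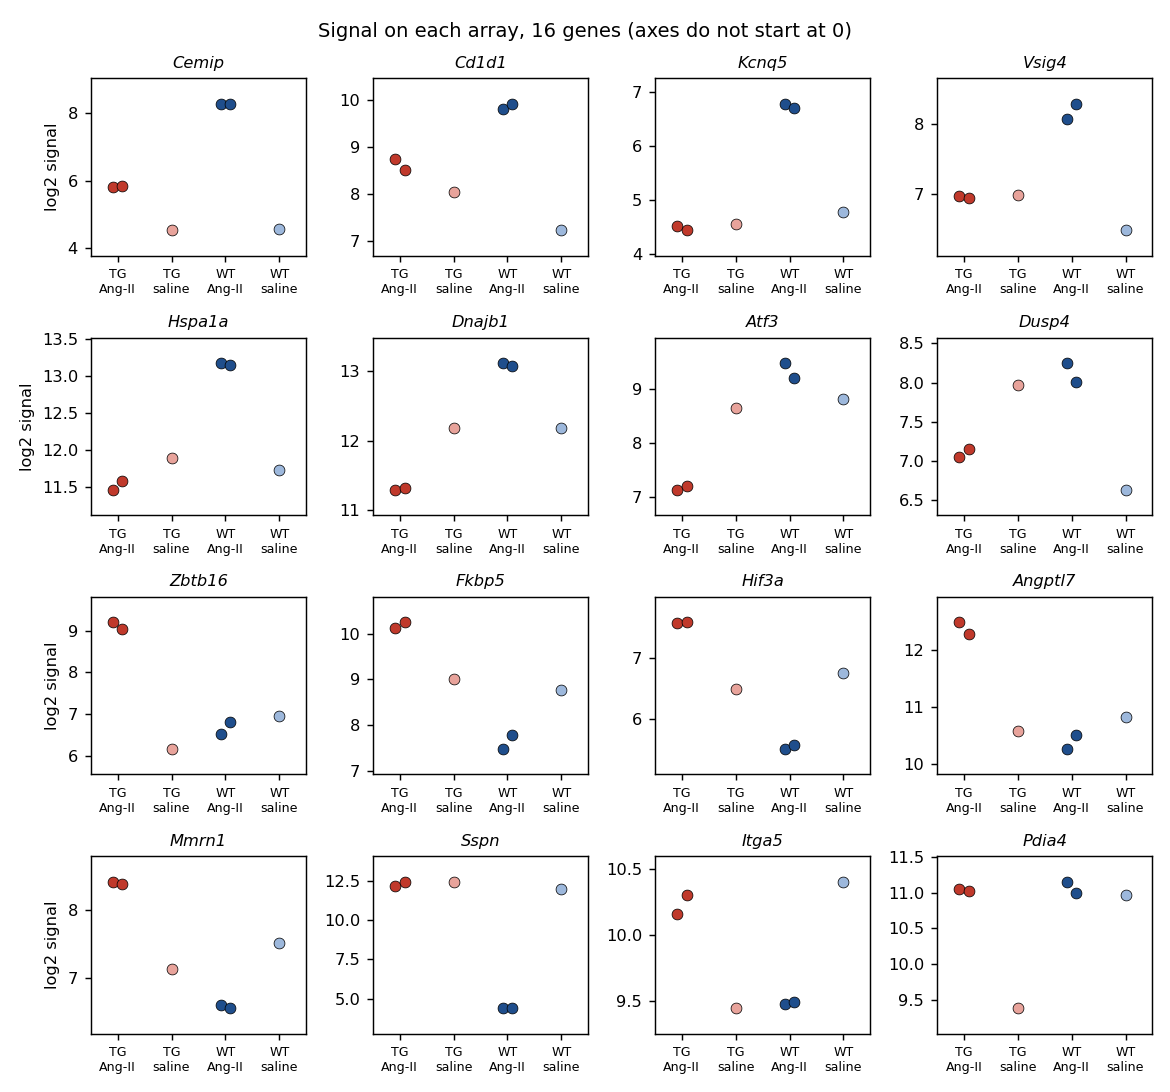
Normalized log2 signal of 16 named genes, with 1 point for each array and the groups TG Ang-II, TG saline, WT Ang-II and WT saline from left to right; the axes differ between panels and do not start at 0. The first 2 rows show genes lower in TG Ang-II than in WT Ang-II, as Hspa1a (11.46 and 11.58 against 13.18 and 13.16). The other panels show genes with a higher interaction, of which Pdia4 is level on the Ang-II arrays and low on the TG saline array (9.38).

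For some genes the interaction was a fall in WT that TG did not show. Sspn, which encodes sarcospan of the dystrophin complex that ties the cell skeleton of muscle to the matrix, had 12.18 and 12.42 in TG Ang-II and 12.43 in TG saline, against 4.39 and 4.43 in WT Ang-II and 11.97 in WT saline. Bright on 4 arrays, it was not detected on either WT Ang-II array, where it fell at least 84.7-fold, and the interaction was 7.43 ± 0.24 (adjusted p = 0.000974). It was measured by 1 probe. Tbc1d1, a Rab GTPase-activating protein that governs glucose uptake in muscle, had 8.93 and 8.81 in TG Ang-II and 9.23 in TG saline, against 6.33 and 6.15 in WT Ang-II and 8.79 in WT saline. It fell 5.86-fold in WT, with an interaction of 2.19 ± 0.24 (adjusted p = 0.0228) and, by a second probe, 1.82 ± 0.21 (adjusted p = 0.0263). Cops8, a subunit of the COP9 signalosome, fell 5.88-fold in WT (interaction 2.32 ± 0.29, adjusted p = 0.0309). Nudt6, a nudix hydrolase, fell 5.06-fold in WT (interaction 2.38 ± 0.35, adjusted p = 0.0489). In these 4 genes the 2 WT Ang-II arrays lay below the other 4 arrays. Sspn passed without WT Ang-II array 1 and array 2 (adjusted p = 0.0126 and 0.0125), and the other 3 did not (0.0777 to 0.117).

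Npas2, a partner of the clock gene Arntl, also fell in WT, but its genotypes lay farther apart on the single saline arrays (TG minus WT -1.42) than under Ang-II (1.22). It had 5.97 and 6.08 in TG Ang-II and 5.47 in TG saline, against 4.68 and 4.93 in WT Ang-II and 6.89 in WT saline, and was not detected in WT Ang-II or TG saline. It fell at least 2.51-fold in WT, and its interaction was 2.64 ± 0.25 (adjusted p = 0.0180; 0.101 and 0.0754 without WT Ang-II array 1 and array 2). Of 15 measured clock genes Npas2 alone passed, where 0.722% of all genes passed with a higher interaction. The interaction lay above 0 for 14, where it did for 4787 of 9837 genes, and the median was 0.27, against -0.01 over all genes. Some of the 14 lay within 1 SE of 0, as Nr1d2 (0.04 ± 0.24) and Usp2 (0.06 ± 0.23). Bhlhe40 lay below 0, at -0.86 ± 0.26 (adjusted p = 0.227). Arntl had 0.83 ± 0.21 (adjusted p = 0.168), Dbp 0.63 ± 0.21 (adjusted p = 0.275) and Per2 0.27 ± 0.27 (adjusted p = 0.740). The hour of dissection was not stated.

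Eef1a2 and Cavin4, which are known mainly from striated muscle (Eef1a2 also from neurons), rose in TG with the striated muscle list. Eef1a2, a translation elongation factor, had 9.55 and 9.41 in TG Ang-II and 6.54 in TG saline, against 5.72 and 6.16 in WT Ang-II and 6.49 in WT saline (interaction 3.49 ± 0.31, adjusted p = 0.0146). Cavin4, a protein of muscle caveolae, was detected only on the TG Ang-II arrays (6.81 and 6.89) and had an interaction of 2.24 ± 0.22 (adjusted p = 0.0201), or 1.25 with undetected values at the lowest detected signal. It passed the filter only through those arrays, so its call is a description. Both were far higher in TG Ang-II than in any other group, as was the striated muscle sum (127.9 and 125.9 in units of 1000, against 69.3 to 77.8 on the other 4 arrays). Leaving out WT Ang-II array 1 and array 2 gave an adjusted p of 0.0549 and 0.0386 for Eef1a2 and 0.111 and 0.111 for Cavin4.

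In a last group the genotypes were nearer to each other under Ang-II than under saline, so that the interaction turned on the single saline arrays. Hnrnpl, an RNA-binding protein that regulates splicing, had 11.76 and 11.71 in TG Ang-II and 6.23 in TG saline, against 11.96 and 11.85 in WT Ang-II and 11.33 in WT saline. The TG saline array stood alone, and the interaction was 4.92 ± 0.22 (adjusted p = 0.00122). Pdia4, a disulfide isomerase of the endoplasmic reticulum, had 11.05 and 11.03 in TG Ang-II and 9.38 in TG saline, against 11.15 and 11.00 in WT Ang-II and 10.97 in WT saline (interaction 1.55 ± 0.22, adjusted p = 0.0481). Ggact had 7.10 and 6.79 in TG Ang-II and 4.98, not detected, in TG saline, against 6.91 and 6.56 in WT Ang-II and 7.39 in WT saline (interaction 2.62 ± 0.32, adjusted p = 0.0292), and a second probe had 0.83 ± 0.31 (adjusted p = 0.323). Saa3, an acute-phase protein of the serum amyloid A family, ran the other way. It had 5.44 and 5.59 in TG Ang-II and 7.14 in TG saline, against 6.00 and 6.33 in WT Ang-II and 4.68 in WT saline (interaction -3.11 ± 0.28, adjusted p = 0.0146). Hnrnpl passed without WT Ang-II array 1 and array 2 (adjusted p = 0.0151 and 0.0164), and Pdia4, Ggact and Saa3 did not (0.0552 to 0.168).

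Itga5, the alpha subunit of the fibronectin receptor, had both kinds of difference. It had 10.16 and 10.30 in TG Ang-II and 9.44 in TG saline, against 9.47 and 9.49 in WT Ang-II and 10.40 in WT saline. It rose 1.72-fold in TG and fell 1.89-fold in WT, with an interaction of 1.70 ± 0.22 (adjusted p = 0.0368) and 2.03 ± 0.25 (adjusted p = 0.0315) by a second probe. The difference between the genotypes was 0.75 under Ang-II and -0.96 under saline. A4galt, the enzyme that makes the glycolipid Gb3, had 8.65 and 8.82 in TG Ang-II and 6.12 in TG saline, against 7.49 and 7.78 in WT Ang-II and 7.42 in WT saline (interaction 2.40 ± 0.27, adjusted p = 0.0249), and a second probe had 1.00 ± 0.44 (adjusted p = 0.401). The adjusted p without WT Ang-II array 1 and array 2 was 0.162 and 0.154 for Itga5 and 0.118 and 0.101 for A4galt.

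The contractile apparatus of smooth muscle was described by 37 genes. Itga5 was the 1 that passed with a higher interaction and 0 passed with a lower one, where 0.722% and 0.539% of all genes did. Of the 37 interactions 33 lay above 0, where 4699 of 9642 did over all genes outside the other-tissue lists. The median TG minus WT was 0.14 under Ang-II and -0.22 between the single saline arrays. The median response was -0.13 in TG and -0.47 in WT. In TG 2 members rose and 3 fell, where 5.23% and 1.56% of all genes did. In WT 0 rose and 7 fell, where 6.09% and 2.63% did. Tagln, an actin-binding protein of differentiated smooth muscle, had 12.28 and 12.31 in TG Ang-II and 12.55 in TG saline, against 11.83 and 11.79 in WT Ang-II and 12.87 in WT saline. It fell 2.09-fold in WT, and its interaction was 0.81 ± 0.21 (adjusted p = 0.175). Lmod1, a leiomodin that seeds actin filaments, had an interaction of 0.85 ± 0.23 (adjusted p = 0.185), Ppp1r12a, the targeting subunit of myosin phosphatase, 1.09 ± 0.25 (adjusted p = 0.140), and its catalytic partner Ppp1cb 0.96 ± 0.22 (adjusted p = 0.141). For Ppp1r12a and Ppp1cb TG minus WT was larger in size under saline (-0.79 and -0.82) than under Ang-II (0.31 and 0.13). For Lmod1 it was -0.15 under saline and 0.70 under Ang-II. Acta2, smooth muscle actin, was level on all 6 arrays at 15.02 to 15.19 (interaction 0.03 ± 0.21, adjusted p = 0.978), and the smooth muscle myosin Myh11 had 0.25 ± 0.22 (adjusted p = 0.705). A dimmer Acta2 probe had 1.04 ± 0.21 (adjusted p = 0.105), and no Acta2 probe passed.

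The regulators of smooth muscle transcription did not pass. Of 35 measured genes of the CaMKII, MEF2 and SRF pathways, 0 passed in either direction and the median interaction was 0.21. The kinase genes Camk2d and Camk2g had interactions of -0.13 ± 0.22 (adjusted p = 0.858) and 0.50 ± 0.22 (adjusted p = 0.402), and Camk2n1, the gene of an endogenous CaMKII inhibitor, 0.20 ± 0.23 (adjusted p = 0.791). Whether the transgene carries the sequence of that probe is not given, so it checks neither the labels nor the transgene. Hdac4 had 8.32 and 8.23 in TG Ang-II and 6.65 in TG saline, against 8.04 and 7.96 in WT Ang-II and 7.68 in WT saline, and rose 3.08-fold in TG. The TG saline array was the low one, and the interaction was 1.30 ± 0.22 (adjusted p = 0.0666). Myocd, the coactivator of SRF in smooth muscle, had an interaction of 0.89 ± 0.23 (adjusted p = 0.178) and Mef2c one of 0.86 ± 0.23 (adjusted p = 0.179), while a dim Mef2c probe lay below 0 at -0.51 ± 0.23 (adjusted p = 0.409). By its brightest probe Mef2c was level between the genotypes under Ang-II (TG minus WT -0.02). Its TG saline array was the low one (9.44, against 10.31 in WT saline).

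Vasoactive and calcium handling genes gave 1 passing gene, the channel Kcnq5, whose call is a description because it entered only through WT Ang-II. Of 37 vasoactive genes 0 passed, with a median of 0.01. Of 30 channel and pump genes 0 passed with a higher and 1 with a lower interaction, where 0.722% and 0.539% of all genes did, with a median of -0.06. Agtr1a, the main Ang-II receptor of the mouse vessel, had 7.57 and 8.03 in TG Ang-II and 7.77 in TG saline, against 6.69 and 6.53 in WT Ang-II and 6.07 in WT saline. It was 2.28-fold higher in TG than in WT under Ang-II (adjusted p = 0.0253), had a difference of 1.71 ± 0.23 under saline (adjusted p = 0.0869), and its interaction was -0.52 ± 0.32 (adjusted p = 0.563). Rgs5, a brake on the signal of such receptors in mural cells, had 10.23 and 10.29 in TG Ang-II and 8.99 in TG saline, against 10.06 and 10.19 in WT Ang-II and 9.75 in WT saline (interaction 0.90 ± 0.22, adjusted p = 0.157). Aplnr, the apelin receptor, had -1.53 ± 0.36 (adjusted p = 0.140), and the phosphodiesterase Pde5a 0.99 ± 0.27 (adjusted p = 0.185).

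Of 21 collagen genes, 6 rose in TG and 8 in WT, where 5.23% and 6.09% of all genes rose. The other 15 and 13 did not pass, the median response was 0.43 in TG and 0.51 in WT, and 0 passed the test of the difference. Col1a1 had 13.86 and 13.74 in TG Ang-II and 12.20 in TG saline, against 14.32 and 14.24 in WT Ang-II and 12.46 in WT saline. It rose 3.03-fold in TG and 3.52-fold in WT (interaction -0.22 ± 0.22, adjusted p = 0.746). Col8a1, a short-chain collagen of the vessel wall, rose 2.66-fold in TG and 3.21-fold in WT (interaction -0.27 ± 0.22, adjusted p = 0.666), and a second probe lay on the other side of 0 at 0.52 ± 0.26 (adjusted p = 0.467). A p above the threshold does not show that the responses were equal. Of 60 other matrix genes Cemip alone passed, with a lower interaction, where 0.539% of all genes did. The median of these genes was -0.06. Cthrc1, a secreted protein of activated adventitial and smooth muscle cells, rose at least 5.66-fold in TG and at least 8.57-fold in WT (interaction -1.12 ± 0.21, adjusted p = 0.0874).

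Matrix enzymes, integrins and growth factors gave few calls. Of 66 matrix enzymes and inhibitors 0 passed, with a median of -0.02. The proteases Ctsk and Mmp2 rose 3.03-fold and 2.10-fold in TG and 4.65-fold and 2.46-fold in WT, with interactions of -0.62 ± 0.22 (adjusted p = 0.295) and -0.22 ± 0.23 (adjusted p = 0.745). Adamts12 rose 2.82-fold in TG and 6.38-fold in WT (interaction -1.18 ± 0.25, adjusted p = 0.112). Of 30 genes on the integrin and adhesion list Sspn alone passed, and of 82 on the growth factor list Angptl7 alone. Both had a higher interaction, with which 0.722% of all genes passed. Itga5, counted with the contractile list, and Nrg4 are on neither. Igfbp3, a carrier of insulin-like growth factors, had 8.65 and 8.75 in TG Ang-II and 7.24 in TG saline, against 7.88 and 7.77 in WT Ang-II and 7.53 in WT saline (interaction 1.17 ± 0.22, adjusted p = 0.0901). Of 16 cartilage type genes 0 passed. Chad, a matrix protein of cartilage, was 7.76-fold higher in TG than in WT under Ang-II (adjusted p = 0.000551) and 4.85-fold higher under saline (adjusted p = 0.0335; 0.108 without either WT Ang-II array), with an interaction of 0.68 ± 0.24 (adjusted p = 0.305).

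Cell division genes and inflammatory mediators had medians below 0 without a call. Of 43 division genes, 10 rose and 1 fell in TG (5.23% and 1.56% of all genes did) and 16 rose and 0 fell in WT (6.09% and 2.63%). The median interaction was -0.44. At an unadjusted p under 0.05, 14 were lower and 0 higher, where 6.89% and 6.62% of all genes were, and 0 passed after adjustment. Cdkn2b, an inhibitor of the cell cycle, had 7.83 and 7.98 in TG Ang-II and 8.84 in TG saline, against 9.54 and 9.46 in WT Ang-II and 9.03 in WT saline (interaction -1.41 ± 0.23, adjusted p = 0.0611). Plk1, a kinase of mitosis, had 5.83 and 5.74 in TG Ang-II and 5.27, not detected, in TG saline, against 7.40 and 7.46 in WT Ang-II and 5.75 in WT saline (interaction -1.16 ± 0.22, adjusted p = 0.0865). These 2 genes act in opposite senses in the cell cycle, and both were lower in TG than in WT under Ang-II (adjusted p = 0.00354 and 0.00269). Of the 43, 16 were not detected in at least 1 group.

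Chemokine genes did not share 1 direction. Of 39 measured chemokines and cytokines 0 passed and the median was -0.22. Ccl21a, a chemokine of lymphatic vessels, had 10.10 and 9.90 in TG Ang-II and 8.48 in TG saline, against 8.51 and 8.54 in WT Ang-II and 8.41 in WT saline (interaction 1.40 ± 0.23, adjusted p = 0.0666). The near-identical Ccl21 copies may share its probe. Cxcl9, which draws T cells, had an interaction of -1.54 ± 0.26 (adjusted p = 0.0715), and the monocyte chemokine Ccl7 one of -1.73 ± 0.34 (adjusted p = 0.0966). Of 16 lymphocyte and granulocyte genes 0 passed. Cd3d, a chain of the T cell receptor complex detected on 2 arrays, had 5.67 and 5.74 in TG Ang-II and 5.56 in TG saline, against 4.70 and 4.86 in WT Ang-II and 6.15 in WT saline (interaction 1.52 ± 0.23, adjusted p = 0.0520). Of 38 interferon and complement genes 0 passed and the median was -0.10.

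Stress genes were called in both directions. Of 44 stress genes, Pdia4 passed with a higher and Hspa1a and Dnajb1 with a lower interaction, where 0.722% and 0.539% of all genes did. The median was -0.04. Sdf2l1 (1.42 ± 0.23, adjusted p = 0.0611), Calr (0.87 ± 0.23, adjusted p = 0.178) and Pdia3 (0.68 ± 0.22, adjusted p = 0.258), genes of the endoplasmic reticulum like Pdia4 and picked after their values were seen, were lowest on the TG saline array and did not pass. Other such genes, picked likewise, did not share this. Herpud1 (-0.45 ± 0.22, adjusted p = 0.452) and Syvn1 (-0.15 ± 0.22, adjusted p = 0.831) were lowest on the WT saline array. Of 21 endothelial markers Mmrn1 alone passed, with a higher interaction (0.722% of all genes did), and the median interaction was -0.30. Their median TG minus WT was 0.64 between the single saline arrays and 0.34 under Ang-II. Under Ang-II 5 were higher and 0 lower in TG, where 3.02% and 2.33% of all genes were. Lyve1, a marker of lymphatic endothelium, had 0.94 ± 0.25 (adjusted p = 0.179) and Vwf, a marker of blood vessel endothelium, -0.56 ± 0.22 (adjusted p = 0.336). For Vwf TG minus WT was 0.99 under saline and 0.43 under Ang-II, and for Lyve1 -0.14 and 0.80. Of 29 fibroblast markers and 38 oxidant enzymes 0 passed, with medians of -0.07 and -0.03.

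**Figure D5:**
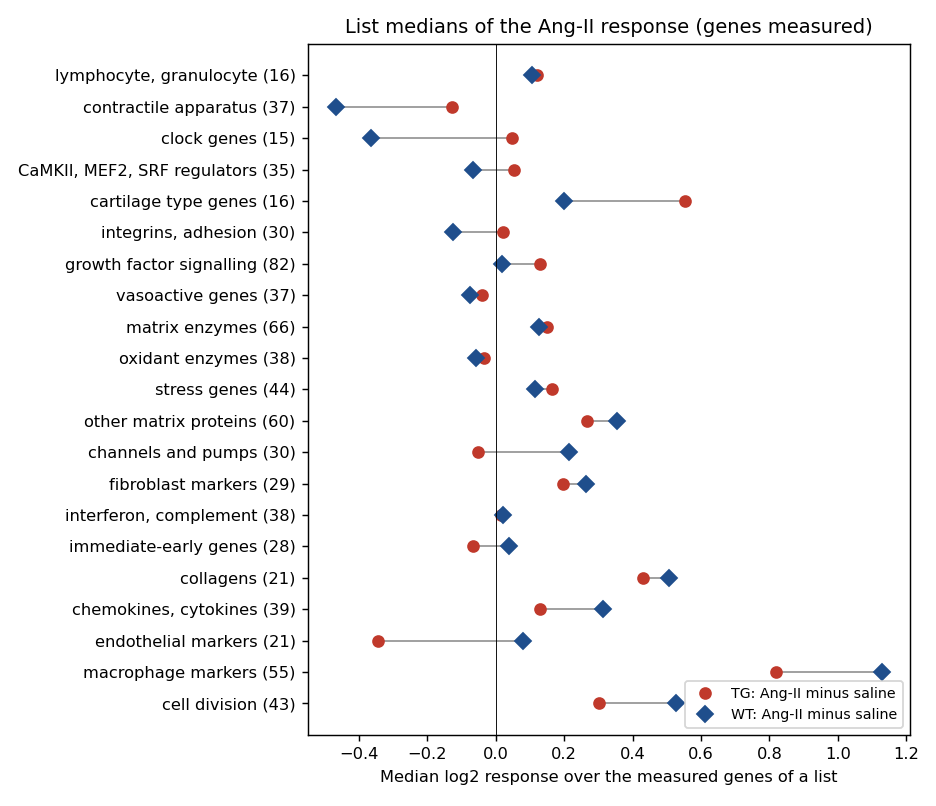
Median log2 Ang-II response of TG (circles) and WT (diamonds) over the measured genes of each of 21 lists, ordered from the highest median interaction at the top to the lowest at the bottom; the number of genes stands in brackets. The macrophage list has the highest medians in both genotypes (0.82 in TG, 1.13 in WT), and the contractile list lies below 0 in both (-0.13 in TG, -0.47 in WT).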

How the data were processed

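Members and lists were chosen with earlier results of these data known. RNA was labelled with the TargetAmp-Nano kit, and the submitters' processing notes name GenomeStudio 2011.1 and limma 3.22.1. Per the file headers, the deposited files hold mean bead intensity, its bead error, bead counts and a detection p-value for each probe and array, and the authors' value table holds log2 values. All 271686 of these equal neqc (offset 16) of the intensities within 5e-09. The intensities were used for alternatives, the bead counts not at all.

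A model of 4 group means was fitted to the 6 arrays in limma 3.58.1 (R 4.3.3; 2 residual degrees of freedom), with Benjamini-Hochberg adjustment over 16749 probes and a threshold of 0.05. It was tested on simulated data. Symbols came from the platform annotation through RefSeq (GRCm38.p6): 34885 probes had 1, 18 several and 10378 none. Each of 9837 genes took its brightest probe. Lower bounds of fold used each array's lowest detected signal (5.54 to 5.69 log2). Named were the 15 largest interactions that passed in each direction outside the 3 other-tissue lists, up to 3 genes of smallest p in a list, and fixed genes. Other genes were chosen after their values were seen. Of the probes, 851 were detected on exactly 2 arrays and 1379 on exactly 1. The alternatives were another normalization, offset, filter, probe rule, weights, prior, each Ang-II array left out, a replicate block and a fit without other-tissue probes.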

Additional observations from a re-analysis of the deposited data

Results flagged for a closer look

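The Ang-II response differed between TG and WT, by the test of the interaction itself, for 199 probes, and the 35 genes that passed among those named by rule are given here with that difference in log2 units (TG response minus WT response). Kcnq5, Dtd2 and Cavin4 passed the detection filter only through the group where they are high, so their calls are descriptions. Above 0 were Sspn at 7.43, Hnrnpl at 4.92, Eef1a2 at 3.49, Zbtb16 at 3.24 and Npas2 at 2.64. Ggact stood at 2.62, A4galt at 2.40, Nudt6 at 2.38, Cops8 at 2.32 and Fkbp5 at 2.30. Hif3a followed at 2.27, Cavin4 at 2.24, Angptl7 at 2.23, Mmrn1 at 2.22, Tbc1d1 at 2.19, Itga5 at 1.70 and Pdia4 at 1.55. Below 0 were Saa3 at -3.11, Irs3 at -2.70, Lncbate10 at -2.39, Hs6st2 at -2.39 and Cemip at -2.38. Dusp4 stood at -2.36, Tmem79 at -2.27, Lrrn1 at -2.08, Nrg4 at -2.07, Cd1d1 at -2.05 and Kcnq5 at -2.02. Atf3 followed at -2.01, Dtd2 at -1.98, Hcar1 at -1.87, Fam184b at -1.85, Hspa1a at -1.81, Dnajb1 at -1.79 and Vsig4 at -1.74. Irs2, Trbv13-2 and probes of Nnmt, Rpl29, Capn2 and Cd8b1, chosen after their values were seen, also passed and are given with the other observations. No group held enough arrays to look for single arrays that stand apart.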

How the results depend on the processing

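The interaction passed for 199 probes. It passed for 730 with quantile normalization without background correction, 446 with an offset of 50, 60 without the detection filter, 775 with a trended robust prior and 14 in the fit without other-tissue probes, and for 28 to 133 with 1 Ang-II array left out. No interaction of a named gene that passed changed sign in these fits. The higher calls were 59.8% of the total, 73.3% without the filter, 71.4% without other-tissue probes and 100% without WT Ang-II array 1 or array 2, where 0 lower calls were left. Under Ang-II, TG and WT differed for 885 probes, and in the same order for 1807, 1466, 483 and 1868, and for 142 to 570 with an array left out. Under saline 31 passed, and 646, 314, 1 and 735, with 147 for detection on all 6 arrays and 4 to 36 with an array left out. In TG 1268 passed, and 2240 with quantile normalization, 604 without the filter, 754 with probes averaged by gene, 2303 with the trended prior and 616 to 877 with an array left out. In WT 1518 passed, and 2939, 2323 (offset of 50), 781, 3015 and 224 to 1631. The share of rises was 77.1% in TG and 70.0% in WT, and 63.7% and 55.8% with quantile normalization. With the replicate number as a block the interaction passed for 158 probes and the saline difference for 20. The deviations of same-numbered arrays correlated with r = 0.115, over 2 numbers only, so the numbers were not taken as pairs. The causes of these shifts were not tested. Of the 35 named genes that passed, 8 passed without the filter and 30 with the block. Signals near background limit Kcnq5, Dtd2 and Fam184b, whose interactions with undetected values at the lowest detected signal were -1.09, -0.91 and -0.93, and Npas2, Cavin4 and Saa3, with 1.68, 1.25 and -1.99.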

Other observations

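Some genes that glucocorticoids are known to induce were looked up after Fkbp5 and Zbtb16 had been seen, and their values are a description of single genes, of which Irs2 alone passed. Tsc22d3, which encodes the leucine zipper protein GILZ, had 13.11 and 12.78 in TG Ang-II and 11.28 in TG saline, against 11.47 and 11.80 in WT Ang-II and 11.68 in WT saline. Its interaction was 1.71 ± 0.32 (adjusted p = 0.0854), and a second probe gave 1.57 ± 0.29 (adjusted p = 0.0868). Ddit4 had 2.03 ± 0.32 (adjusted p = 0.0576), Mt2 1.75 ± 0.46 (adjusted p = 0.177), Sgk1 0.73 ± 0.21 (adjusted p = 0.211), Klf15 1.08 ± 0.41 (adjusted p = 0.326), Irs2 1.56 ± 0.22 (adjusted p = 0.0429) and Per1 0.64 ± 0.22 (adjusted p = 0.275). Dusp1 lay below 0, at -0.20 ± 0.22 (adjusted p = 0.772). Hormone levels were not measured in these files.

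A few transcripts of T cells, picked after their values were seen, were lower on the WT Ang-II arrays than elsewhere, and others were not. Trbv13-2, a variable segment of the T cell receptor, had 6.11 and 6.10 in TG Ang-II and 6.41 in TG saline, against 5.07 and 5.11, not detected, in WT Ang-II and 7.57 in WT saline (interaction 2.17 ± 0.21, adjusted p = 0.0185). Rag1, which recombines such segments in the thymus, had 1.76 ± 0.30 (adjusted p = 0.0717), and Lat, an adaptor of the receptor, 1.58 ± 0.38 (adjusted p = 0.154). By its brightest probe Cd8b1 had 11.44 and 11.34 in TG Ang-II and 11.16 in TG saline, against 11.39 and 11.28 in WT Ang-II and 11.39 in WT saline (interaction 0.28 ± 0.22, adjusted p = 0.660), while a dimmer Cd8b1 probe had 1.73 ± 0.25 (adjusted p = 0.0491). Prf1, a gene of cytotoxic cells, rose in both genotypes (interaction 0.26 ± 0.39, adjusted p = 0.835). Of the mesothelial genes, Upk1b had 1.50 ± 0.33 (adjusted p = 0.129) and Msln 0.93 ± 0.31 (adjusted p = 0.273).

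Probes of 1 gene disagreed in a few cases, each seen after its values. An Nnmt probe had 10.71 and 10.70 in TG Ang-II and 10.22 in TG saline, against 6.28 and 6.10 in WT Ang-II and 10.18 in WT saline (interaction 4.47 ± 0.23, adjusted p = 0.00173), while the brightest Nnmt probe had 0.60 ± 0.22 (adjusted p = 0.310). Rpl29 gave 4.43 ± 0.21 (adjusted p = 0.00148) by 1 probe and 0.86 ± 0.25 (adjusted p = 0.213) by its brightest. Capn2 gave 2.28 ± 0.22 (adjusted p = 0.0180) and 2.00 ± 0.28 (adjusted p = 0.0429) by 2 probes and 0.47 ± 0.24 (adjusted p = 0.469) by its brightest. In each case the WT Ang-II arrays were low on the probes that passed.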
